A study of Homo sapiens with 2 samples.

Results

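The transcripts of 10 enzyme genes that add acetyl groups to histones or take them off were followed by RNA-Seq in HEK293T cells. The acetyltransferases were EP300, CREBBP, KAT2A, KAT2B and KAT5, and the deacetylases were HDAC1, HDAC2, HDAC3, SIRT1 and SIRT7. The genes were chosen by symbol, without use of their measured values, though earlier results of these data were known. All 10 were found by their Ensembl identifiers among 57736 genes. HEK293T is an established human cell line of embryonic kidney origin in which the SV40 large T antigen is expressed. The cells were labelled wild type and no treatment was named, and poly(A)+ RNA was sequenced in 2 replicates of this single group. Nothing in the labels says whether the RNA replicates came from separate cultures, so the spread between them may be technical. With 1 group, no condition was compared with another, and the comparisons were made between genes and between the 2 libraries.

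Acetylation of lysines in histone tails weakens the hold of the tail on DNA and provides a docking site for bromodomain proteins, and it is commonly found at active promoters and enhancers. Acetyltransferases take the acetyl group from acetyl coenzyme A. Classical deacetylases such as HDAC1, HDAC2 and HDAC3 use zinc for the reverse reaction, whereas sirtuins use NAD+. Most of these enzymes work inside large complexes, and many of them also act on proteins other than histones. The levels given here are of transcripts, and no histone mark, protein or enzyme activity was measured.

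All 10 genes were detected, that is, reached a TPM of 1 in each replicate. TPM, a relative transcript abundance, gives the reads of a gene corrected for transcript length and set to a common sum in each library. The share detected was 27.7% of all genes and 63.7% of 19391 protein-coding genes. Estimated counts, the reads that RSEM assigned to a gene after sharing out ambiguous ones, added up to 10593491 in replicate 1 and 10104118 in replicate 2. The tissue label kidney was checked against 12 markers of kidney epithelium, of which 2 were detected, LRP2 and PAX2, and the summed TPM of the list was 13.2 and 13.7. AQP2, UMOD, SLC34A1 and CDH16, which mark differentiated kidney cells, had 0 counts in both replicates. Of 5 fibroblast markers none was detected, and the summed TPM of that list was 2.18 and 2.66.

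Since 3 pairs among the 10 genes are paralogs and the reads were 50 bp long, the sequences were compared first. The most similar 50-base stretch of the coding sequences is shown for each pair, because a read can be told apart between paralogs only by the bases that differ. These bases are in capitals, the strand is that of the gene, and the build is GRCh37. The EP300 stretch lies at chr22:41572428-41572477 (plus strand) and that of CREBBP at chr16:3781248-3781297 (minus strand), each within 1 coding exon. The KAT2A stretch spans an intron between chr17:40267850-40269100 (minus strand), and that of KAT2B lies between chr3:20168994-20178435 (plus strand). The HDAC1 stretch lies between chr1:32757798-32768249 (plus strand) and that of HDAC2 between chr6:114281155-114292042 (minus strand), both interrupted by introns.
EP300: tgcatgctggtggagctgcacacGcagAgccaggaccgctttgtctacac
CREBBP: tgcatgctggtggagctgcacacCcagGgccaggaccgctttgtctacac
KAT2A: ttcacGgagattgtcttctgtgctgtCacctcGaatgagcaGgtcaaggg
KAT2B: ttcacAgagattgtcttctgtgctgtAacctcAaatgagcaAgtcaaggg
HDAC1: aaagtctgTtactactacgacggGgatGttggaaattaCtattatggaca
HDAC2: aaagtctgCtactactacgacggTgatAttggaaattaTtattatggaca

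Even these stretches differed at 2 bases for EP300 and CREBBP, and at 4 bases for each of the other 2 pairs. None of the 3 pairs had an identical 50-base window in its coding sequences, and the longest identical runs were 29, 20 and 17 bases. Identity over the whole aligned coding sequence was 62.2% for EP300 and CREBBP, 66.8% for KAT2A and KAT2B, and 74.3% for HDAC1 and HDAC2. A full-length read that matched without error could therefore be placed on 1 member of a pair. The longest run shared with another gene in these comparisons, 58 bases, was between HDAC1 and HDAC1P2, a transcribed processed pseudogene, with 9 identical 50-base windows. One such window is shown, at chr1:32798310-32798626 in HDAC1 (interrupted by an intron, near the end of the coding sequence) and chr1:220800722-220800771 in HDAC1P2, both on the plus strand. It has no capitals because no base differs.
HDAC1: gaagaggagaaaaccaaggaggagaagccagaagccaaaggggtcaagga
HDAC1P2: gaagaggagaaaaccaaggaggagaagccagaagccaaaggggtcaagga

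The 10 genes spanned a wide range of levels, from HDAC2 and HDAC1 at the top to KAT2B at the bottom. By mean TPM they ran HDAC2, HDAC1, HDAC3, CREBBP, KAT2A, KAT5, EP300, SIRT1, SIRT7 and KAT2B. The median of the 10 means was 51.8, beside 21.2 for detected protein-coding genes and 6.5 for all protein-coding genes. Of the 45 pairs of genes, 44 had TPM ranges over the replicates that did not overlap, and SIRT7 and KAT2B were the exception. The background for this count is high, since 93.2% of pairs among all detected genes were apart in the same way. A wider range for each gene was taken from the lowest to the highest bound of the authors' TPM intervals over both replicates, and by these merged ranges 38 pairs were apart. The 7 others were HDAC1 with HDAC2, CREBBP with KAT2A and with KAT5, KAT2A with KAT5, SIRT1 with SIRT7 and with KAT2B, and SIRT7 with KAT2B. With 2 values a gene, the smallest p-value of an exact two-sided permutation test is 0.333, so no test between genes was made.

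**Figure D1:**
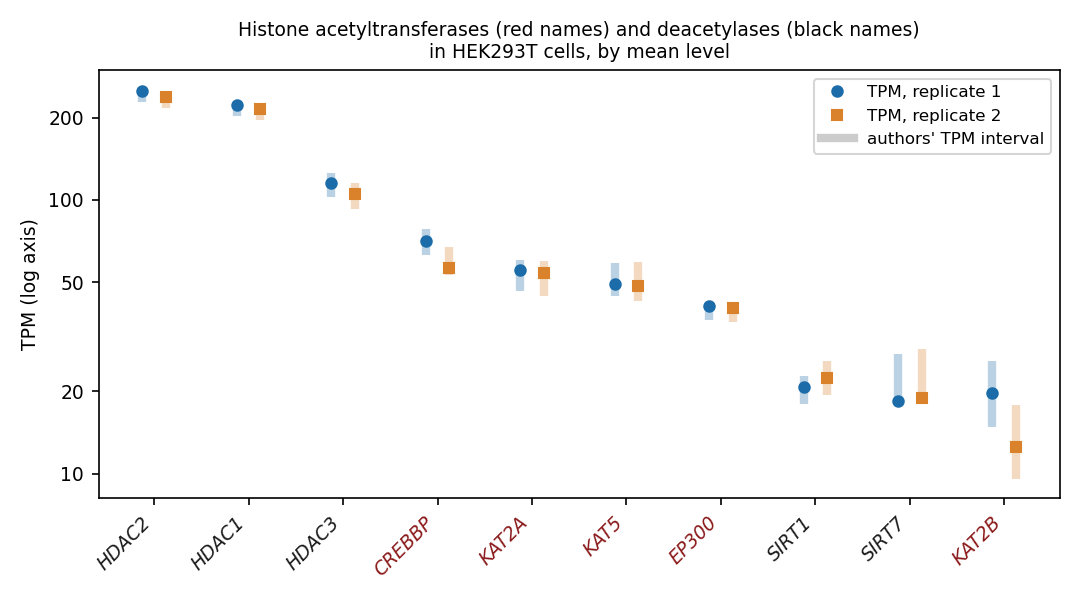
TPM of the 10 genes on a log axis, ordered by mean, with replicate 1 as circles, replicate 2 as squares and the authors' TPM interval as a pale bar. HDAC2 and HDAC1 lie above 214 in both replicates, and KAT2B is the gene whose replicates are farthest apart, at 19.7 and 12.5.

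EP300 and CREBBP encode p300 and CBP, closely related coactivators that acetylate histones and other proteins at enhancers and promoters. EP300 (chromosome 22, 41488596-41576081, plus strand) had TPM values of 41.0 and 40.4 (40.7 ± 0.460, SD, n = 2). CREBBP (chromosome 16, 3775055-3930714, minus strand) had 70.5 and 56.6 (63.6 ± 9.83, SD, n = 2). CREBBP was thus higher on the TPM scale in both replicates, by 1.72-fold and 1.40-fold. The reads themselves were more nearly equal, with 2918 and 2766 estimated counts for EP300 and 3292 and 2909 for CREBBP. The ratio of counts of EP300 to CREBBP was 0.886 in replicate 1 (95% exact binomial interval 0.843 to 0.932) and 0.951 in replicate 2 (0.902 to 1.002), and these intervals cover counting error only. The distance between the scales lies in the transcript length by which counts are divided, which RSEM averages over the isoforms it estimates. EP300 has 1 annotated transcript in the authors' table and was given 9585 nt in both replicates, whereas CREBBP has 12 transcripts and was given 6308 and 7205 nt. The coding sequences, at 7242 and 7326 nt, are of nearly the same length. Per kilobase of coding sequence the log2 ratio of EP300 to CREBBP was -0.11, beside -0.63 by TPM.

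KAT2A and KAT2B encode GCN5 and PCAF, alternative catalytic subunits of the SAGA and ATAC coactivator complexes, which acetylate mainly histone H3. KAT2A (chromosome 17, 40265129-40273385, minus strand) had TPM values of 55.5 and 54.0 (54.7 ± 1.01, SD, n = 2). KAT2B (chromosome 3, 20081938-20195896, plus strand) had 19.7 and 12.5 (16.1 ± 5.10, SD, n = 2). KAT2A was the higher paralog in both replicates, by 2.82-fold and 4.33-fold in TPM. In estimated counts the ratio varied less, at 3.46 (95% exact binomial interval 3.03 to 3.95) and 3.73 (3.25 to 4.29), from 1009 and 974 counts for KAT2A and 292 and 261 for KAT2B. This was the pair among the 3 whose order and approximate size were alike on the TPM scale, in counts and per kilobase of coding sequence, with log2 ratios of 1.80, 1.84 and 1.84.

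KAT5 encodes TIP60, the catalytic subunit of the TIP60 complex, which acetylates histone H4 and H2A and takes part in the DNA damage response. KAT5 (chromosome 11, 65479467-65487075, plus strand) had TPM values of 49.3 and 48.4 (48.8 ± 0.594, SD, n = 2), from 387 estimated counts in each replicate. Its level relative to SIRT1 and to EP300 depended on the length used. By TPM, KAT5 was above SIRT1, which had 20.6 and 22.3, but SIRT1 had more reads, with 593 and 592 counts. RSEM gave KAT5 an averaged length of 1101 and 1162 nt, which was 52.9% and 55.9% of the 2080 nt of its canonical transcript in GENCODE. Per kilobase of coding sequence KAT5 had 22.2 and 23.5 CPM (counts scaled to a common library size). SIRT1 had 24.9 and 26.2, so that the order was turned. EP300, which was below KAT5 by TPM, had 37.9 CPM in both replicates on this scale and was above KAT5. Which length fits the transcripts present was not tested.

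**Figure D2:**
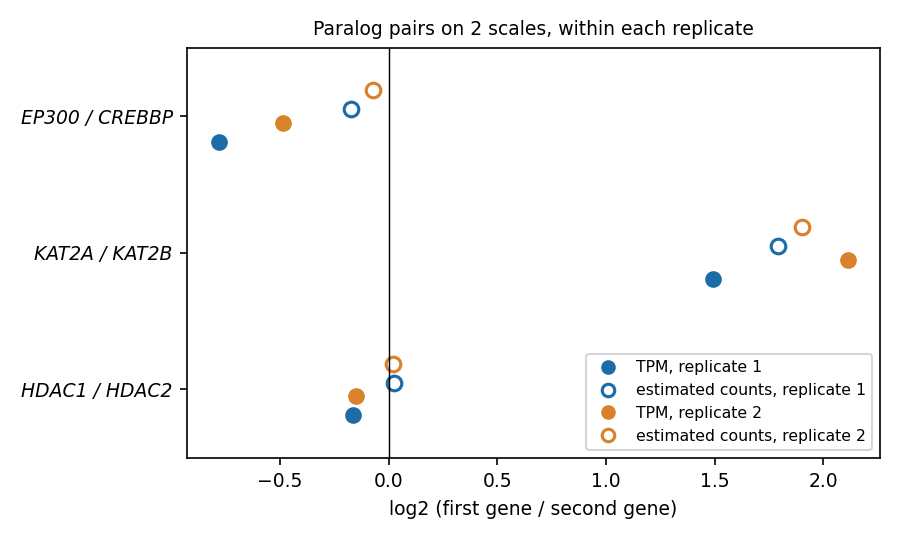
Log2 ratio of the first to the second gene of each paralog pair in each replicate, from TPM (filled circles) and from estimated counts (open circles), with a line at equal values. EP300/CREBBP moves towards 0 in counts, KAT2A/KAT2B stays between 1.49 and 2.11, and HDAC1/HDAC2 crosses 0.

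HDAC1 and HDAC2 encode class I deacetylases that pair with each other in the NuRD, SIN3 and CoREST repressor complexes. HDAC1 (chromosome 1, 32757684-32799236, plus strand) had TPM values of 223 and 214 (219 ± 6.12, SD, n = 2). HDAC2 (chromosome 6, 114254192-114332472, minus strand) had 249 and 237 (243 ± 8.51, SD, n = 2). Both were near the top of detected protein-coding genes, at percentiles 96.2 and 96.8. HDAC2 was higher in TPM by 1.12-fold and 1.11-fold, and the log2 ratio of HDAC1 to HDAC2 was -0.16 ± 0.01 (SD, n = 2). RSEM gave HDAC2 an averaged length of 1756 and 1762 nt. This was 18.0% and 18.1% of its canonical transcript in GENCODE, which is not the authors' release, beside 94.1% and 93.2% for HDAC1. The effect of this length on the TPM of HDAC2 was not tested. In estimated counts HDAC1 was level with HDAC2, with 3233 and 2965 against 3177 and 2922. The count ratio was 1.02 (95% exact binomial interval 0.969 to 1.07) and 1.01 (0.964 to 1.07), so that counting error alone covered a ratio of 1. The sign of the log2 ratio turned to 0.02 in counts and 0.04 per kilobase of coding sequence, and the order of these 2 genes was therefore not settled by the data.

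HDAC3 encodes the class I deacetylase of the NCoR and SMRT corepressor complexes. HDAC3 (chromosome 5, 141000443-141016416, minus strand) had TPM values of 115 and 105 (110 ± 7.06, SD, n = 2), from 982 and 924 estimated counts. It was lower than HDAC1 by 1.98-fold and higher than CREBBP by 1.74-fold in mean TPM, and the merged ranges of the authors' intervals of these neighbours did not overlap. HDAC1, HDAC2 and HDAC3 together made up 93.8% and 93.1% of the summed TPM of the 5 deacetylases.

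SIRT1 encodes a nuclear sirtuin with histone and many other substrates, and SIRT7 a sirtuin found mainly in the nucleolus, where rDNA is transcribed. SIRT1 (chromosome 10, 69644414-69678147, plus strand) had the TPM values given beside KAT5 (21.5 ± 1.18, SD, n = 2). SIRT7 (chromosome 17, 79869815-79879199, minus strand) had 18.5 and 18.9 (18.7 ± 0.346, SD, n = 2), from 247 and 249 estimated counts. Both sat near the middle of detected protein-coding genes, at percentiles 50.4 and 46.0. SIRT7, KAT2B and SIRT1 formed the low end of the 10 genes on the TPM scale, with all their replicate values between 12.5 and 22.3.

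The summed TPM of the 5 acetyltransferases was 236 and 212 (224 ± 17.0, SD, n = 2) and that of the 5 deacetylases 627 and 598 (612 ± 20.2, SD, n = 2). The deacetylase sum was 2.66-fold and 2.82-fold higher in the 2 replicates. In estimated counts the sums were nearly equal, at 7898 and 7297 for the acetyltransferases and 8232 and 7652 for the deacetylases, with ratios of 1.04 and 1.05. Per kilobase of coding sequence the ratio was 3.51 and 3.47. EP300 and CREBBP, whose coding sequences are the longest of the 10, held most of the acetyltransferase reads, so the 2 groups drew on transcripts of unequal length. A sum over transcripts does not measure the balance of the 2 activities in the cells.

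None of the 10 genes differed between the libraries at an adjusted p under 0.05 by a two-sided exact binomial test, in which the rounded counts were set against the scaled library sizes, with Benjamini-Hochberg adjustment over 17920 genes. The share that differed among all genes tested was 3.86%, or 692 genes, and 2379 had an unadjusted p under 0.05. CREBBP was the member with an unadjusted p under 0.05 (p = 0.00584, adjusted p = 0.105, exact binomial test). Its depth-scaled count was 1.07-fold higher in replicate 1 (95% interval 1.02 to 1.13). For KAT2B the same ratio was 1.06 (0.895 to 1.26) and for SIRT7 0.939 (0.785 to 1.13). Small differences may thus have been missed at this depth. The intervals are not detection limits of the adjusted test, since that of CREBBP left out equal values and CREBBP was not called.

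The TPM values of CREBBP and KAT2B were nevertheless apart between replicates. For KAT2B the TPM ratio of replicate 1 to replicate 2 was 1.58, beside a depth-scaled count ratio of 1.06. The averaged length of KAT2B was 2036 nt in replicate 1 and 2960 nt in replicate 2, which is 1.45-fold longer. GENCODE holds a KAT2B transcript of 4410 nt, and the next longest of its 5 transcripts has 675 nt. For CREBBP the TPM ratio was 1.246 and the averaged length 1.14-fold longer in replicate 2. A change of effective length (the positions at which a fragment can start) over 1.1-fold was seen in these 2 of the 10 genes and in 27.6% of detected genes. A change of TPM over 1.2-fold was seen in the same 2 genes and in 31.8% of detected genes. The part that isoform assignment plays in the TPM of KAT2B was not tested.

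**Figure D3:**
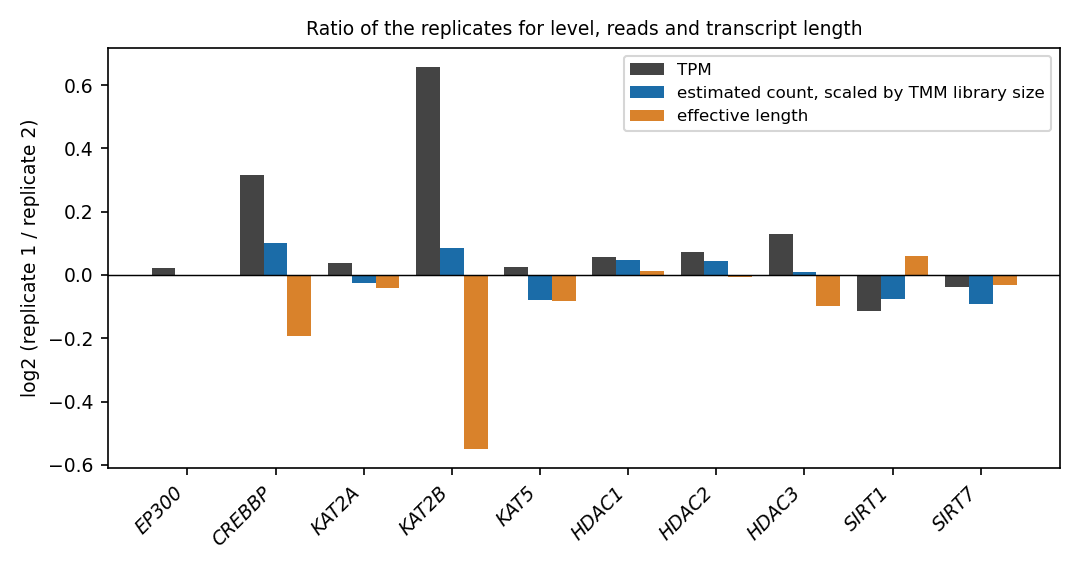
Log2 ratio of replicate 1 to replicate 2 for TPM, the depth-scaled estimated count and the effective length of each of the 10 genes. For KAT2B and CREBBP the TPM bar rises with a small count bar and a length bar of opposite sign.

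RSEM counts need not be whole, since a read with more than 1 possible origin is divided among the candidate genes. The counts of 8 of the 10 genes were not whole (within 0.005 of a count) in at least 1 replicate, beside 51.5% of detected genes, and those of KAT2B and SIRT1 were whole in both. These 2 genes shared no 50-base sequence with the transcripts of any other gene. The posterior SD of the count, which the authors deposited as a measure of the uncertainty of this sharing, was over 1% of the count in KAT5 alone, beside 28.1% of detected genes. KAT5 shared 23.3% of the 50-base sequences of its transcripts with RNASEH2C, a subunit gene of ribonuclease H2 that overlaps it on the opposite strand. The posterior SDs of KAT5, 7.88 and 9.39 counts, were the same as those of RNASEH2C, which had 787 and 738 counts. KAT2A shared 9.05% of its sequences with the overlapping protein-coding gene ENSG00000267261, which had 0 and 17.3 counts, and the posterior SD of KAT2A was 6.05 and 6.82 counts. HDAC3 shared 7.38% with an antisense lncRNA gene that had 2.01 and 0 counts. The remaining genes shared under 1%. HDAC1P2, the pseudogene shown above, had 16.2 and 20.3 counts, against 3233 and 2965 for HDAC1. The strand setting of the counting was not given in the sources read for it, so reads of KAT5 and RNASEH2C in the shared stretch may not be told apart.

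The TPM value lay outside the TPM interval of the same replicate for 3 of the 10 genes, beside 14.5% of detected genes. For EP300 the values of 41.0 and 40.4 were above intervals of 36.5 to 39.3 and 35.8 to 38.6. For SIRT7 the values of 18.5 and 18.9 were below intervals of 18.8 to 27.4 and 19.9 to 28.5. HDAC1 was above its interval in replicate 1 only, at 223 beside an upper bound of 222.6. The interval belongs to the posterior mean TPM, a separate estimate deposited in the same tables, which was 23.0 and 24.1 for SIRT7. On that scale all 45 pairs of genes were apart, SIRT7 and KAT2B included, so the overlap of these 2 genes depends on which estimate is used. SIRT1 had posterior mean TPM values of 20.3 and 22.4, below those of SIRT7 in both replicates, so the order of SIRT1 and SIRT7 also turned with the estimate.

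The 10 genes were then set beside the rest of their families. Levels and orders of the listed genes are by TPM unless stated, and counts per kilobase of coding sequence were not computed for them. All 9 other acetyltransferases in the list were detected, with a median TPM of 27.6. HAT1, which acetylates newly made histone H4, had 90.1 and 87.2 and was above all 5 acetyltransferases reported here in both replicates. KAT7, the enzyme of the HBO1 complexes, had 53.2 and 53.0. KAT14 of the ATAC complex had 16.3 and 17.1, and the nuclear receptor coactivator NCOA3 had 13.0 and 15.7. All 8 other classical deacetylases were detected, with a median TPM of 14.1. HDAC6, a largely cytoplasmic tubulin deacetylase, led in TPM with 45.5 and 46.1, followed by the class I enzyme HDAC8 with 45.4 and 42.8. Each was below HDAC3, the lowest of the 3 class I enzymes reported here. In estimated counts HDAC8 was above HDAC6, with 508 and 475 against 411 and 454. By TPM, HDAC11 had 5.07 and 5.96 and HDAC9 1.11 and 1.32. All 5 other sirtuins were detected, with a median TPM of 14.7. SIRT2, mainly a cytoplasmic enzyme, had 28.6 and 26.6, above SIRT1 in both replicates. The chromatin enzyme SIRT6 had 18.0 and 21.6, a range that overlapped those of SIRT1 and SIRT7. The mitochondrial sirtuins SIRT5 and SIRT4 were lowest, with 5.95 and 6.15 for SIRT5 and 1.15 and 1.95 for SIRT4.

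The complexes in which the acetyltransferases work were also transcribed. All 9 listed partners of p300 and CBP were detected, with a median TPM of 35.0. The highest were CRTC2, a CREB coactivator (69.8 and 65.4), and CREB1, a transcription factor that recruits CBP (59.1 and 59.2), and the lowest were CREM (12.3 and 14.0) and CITED4 (3.67 and 4.93). All 17 genes analysed of the SAGA and ATAC complexes of KAT2A and KAT2B were detected, with a median of 33.0, and a further listed gene, TADA2A, was not analysed here. USP22 (188 and 192) and ENY2 (102 and 92.2) of the deubiquitinase module were highest, above both catalytic subunits, and TADA1 (17.1 and 19.5) and SUPT3H (9.03 and 9.07) were lowest. All 17 genes of the TIP60 complex were detected, with a median TPM of 44.5. This was near the TPM of KAT5, whose level relative to SIRT1 and EP300 depended on the length used. MORF4L1 and MORF4L2, which also occur in other complexes, had 557 and 561, and 455 and 440, while EPC1 (15.1 and 15.1) and MBTD1 (13.8 and 13.6) were lowest.

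Of the deacetylase complexes, NuRD had the highest median TPM, 140 over 11 detected genes of 11. The histone chaperones RBBP4 (385 and 379) and RBBP7 (319 and 353), which also serve other complexes, were above HDAC1 and HDAC2, and MTA3 (39.9 and 40.3) and GATAD2B (34.3 and 32.8) were lowest. In SIN3 all 11 genes were detected with a median of 36.6, from SAP18 (212 and 208) and the scaffold SIN3A (64.0 and 66.4) to SAP30 (17.8 and 16.0) and ING1 (5.36 and 5.97). In CoREST all 6 were detected with a median of 32.1. The demethylase KDM1A (149 and 131) and HMG20B (102 and 88.9) led, and PHF21A (19.9 and 16.5) and RCOR2 (3.49 and 2.43) were lowest. In the NCoR/SMRT complexes of HDAC3 all 5 were detected with a median of 62.6, from NCOR1 (111 and 103) and GPS2 (85.7 and 86.0) to TBL1XR1 (36.9 and 38.6) and TBL1X (34.9 and 33.9). By TPM, HDAC3 was close to NCOR1, and the ranges of the 2 genes overlapped. In estimated counts NCOR1 was above HDAC3, with 2786 and 2456 against 982 and 924. The averaged lengths were 3405 and 3381 nt for NCOR1 and 1190 and 1270 nt for HDAC3, so the closeness depended on the length used.

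Among 4 listed regulators of sirtuins, with a median TPM of 79.1, the SIRT1 inhibitor CCAR2 had 104 and 88.9 and the SIRT1 activator RPS19BP1 had 99.0 and 84.6. Both were above SIRT1 in each replicate. NAMPT, which makes the NAD+ precursor, had 69.8 and 63.1, and NMNAT1, the nuclear NAD+ synthase, 5.05 and 3.03. Of the BET proteins, which read acetylated lysines, BRD2 (464 and 418) was above all 10 enzymes, BRD3 had 44.5 and 44.9, and the testis gene BRDT had 0 counts in both replicates, which allows up to 0.283 and 0.297 CPM. Of 5 genes tied to silencing of rDNA, all detected with a median of 32.6, BAZ2A (150 and 122), the large subunit of the nucleolar remodelling complex NoRC, and SMARCA5 (58.8 and 56.5), its ATPase, were highest, and SUV39H1 (28.6 and 25.8) and TTF1 (17.8 and 17.1) lowest.

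Over these 13 lists 109 of 110 different genes were detected, with a median TPM of 37.1 beside 51.8 for the 10 enzymes. Of the 109 tested, 3 differed between the libraries by the same binomial test, beside 692 of 17920 (3.86%) among all genes tested. They were CHD4 of NuRD (adjusted p = 0.00129), TBL1XR1 (adjusted p = 0.000257) and BRD2 (adjusted p = 0.00848, binomial test). CHD4 is named because it was 1 of 3, after its value was seen. These differences are between 2 libraries of the same cells.

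**Figure D4:**
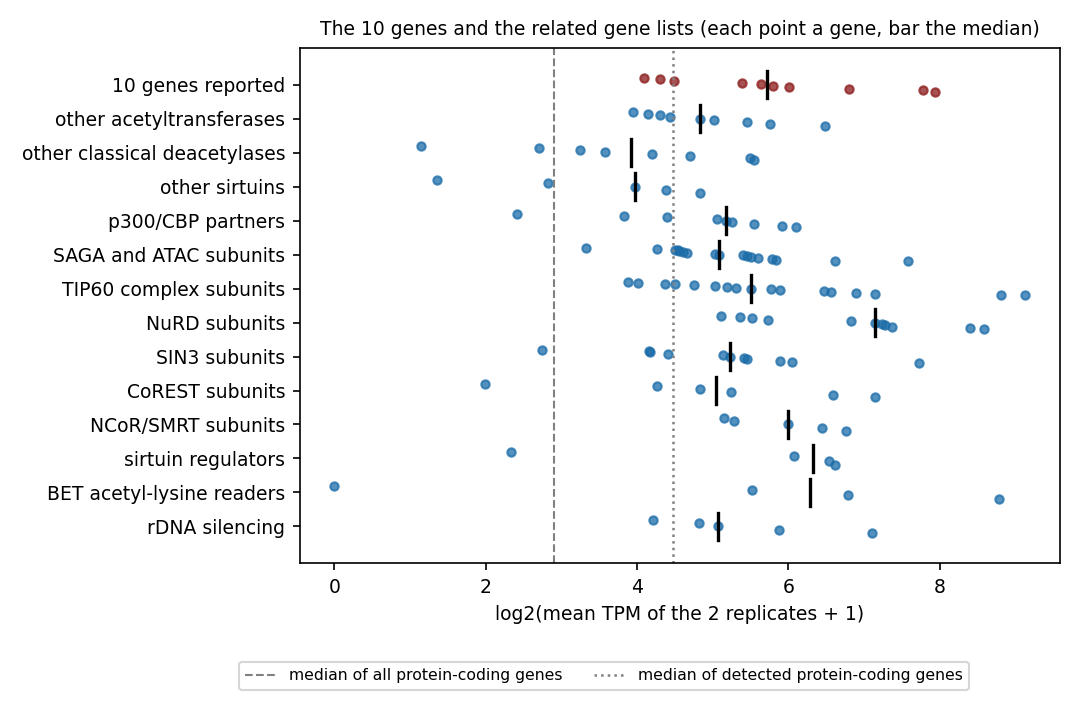
Log2 of the mean TPM plus 1 for the 10 genes (red) and for each related list (blue), with a black bar at the list's median and lines at the medians of all and of detected protein-coding genes. NuRD has the highest median, 140, and BRDT is the gene at 0.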

How the data were processed

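Poly(A)+ RNA of HEK293T cells was sequenced as 50 bp reads on an Illumina HiSeq1500. Per the submitters' processing notes, the tools were Trimmomatic 0.36, STAR 2.6.1c and RSEM 1.3.1, with the GRCh37 build; the study's methods name Ensembl release 87 and featureCounts, whereas the columns are those of RSEM and were read as such. Estimated counts were deposited by the authors per gene, with ambiguous reads shared out. The deposited TPM values are corrected for effective length. FPKM values, also from the authors, served as an alternative. Scores that the authors deposited describe the uncertainty of a count (its posterior SD) and of a TPM value (the bounds of its interval). Lengths deposited by the authors are averages over isoforms. A table of pooled reads was used only as an alternative.

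GENCODE release 44, lifted to GRCh37, gave symbols, coordinates and transcript sequences, and 96.1% of 57736 identifiers matched; this is not the authors' release, and transcript lengths can differ from theirs. Both samples formed 1 group by their labels. Counts were rounded for the exact binomial test (scipy 1.17.1), over genes with 10 or more counts in sum. They were set against library sizes scaled by TMM (edgeR 4.0.16, R 4.3.3). The test was tried on simulated data with counting error alone, which cannot show how it behaves under other variation between libraries. A count of 3 (0.283 and 0.297 CPM) was taken as the limit for a count of 0, and intervals and limits cover counting error only. Sequences of 50 bases were compared on both strands between transcripts of the genes in the table. Besides the 10 enzymes, genes overlapping them, their pseudogene copies, the 2 highest and 2 lowest genes of each list and genes not detected could be named; some listed genes are not reported here. The 10 genes, the lists and the tests were chosen with earlier results of these data known. Alternatives were other thresholds, units, length measures and normalizations, and leaving out each replicate.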

Additional observations from a re-analysis of the deposited data

How the results depend on the processing

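All 10 enzymes were detected under every threshold tried (TPM of 0.1 and 5, FPKM of 1, 10 estimated counts, either replicate alone), and 104 to 109 of the listed genes were. The pairs of genes apart numbered 38 by the merged ranges of the authors' intervals, 45 by the posterior mean TPM and 44 by FPKM. Per kilobase of coding sequence, a scale added after the data were seen, they numbered 43. These counts do not show direction. Pairs apart on this last scale included EP300 with KAT5 and SIRT1 with KAT5, whose order was turned from that by TPM. By the posterior mean TPM the order of SIRT1 and SIRT7 was turned. None of the enzymes differed between the libraries under any setting, with the smallest adjusted p between 0.0625 and 0.890 (binomial test); where genes with whole counts alone were tested, 2 of the enzymes remained in the test, and over all genes 69 of 8675 were called in place of 692 of 17920 (the cause was not tested). The log2 ratio of HDAC1 to HDAC2 turned from -0.16 to 0.023 in counts and 0.041 per kilobase of coding sequence. That of EP300 to CREBBP moved from -0.63 to -0.12 and -0.11 on these scales, and was -0.79 by the posterior mean TPM. The log2 ratio of acetyltransferases to deacetylases moved from -1.45 to -0.064 in counts, -1.80 per kilobase of coding sequence and -1.20 without the highest gene of each group; counts and coding length differ from TPM in the length used, by construction. With 1 replicate left out, the ratios ranged from -0.78 to -0.49 (EP300 to CREBBP), 1.49 to 2.11 (KAT2A to KAT2B), -0.16 to -0.15 (HDAC1 to HDAC2) and -1.50 to -1.41 (the groups). The order of levels was not computed without a replicate, since a range needs both. No paired analysis was possible because both libraries belong to 1 group. Depth limits SIRT7, KAT2B and KAT5 most, which had the fewest counts.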
